A study of Mus musculus with 12 samples.

Results

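The transcripts described here are those of the mouse mitochondrial genome, measured in 12 RNA-seq libraries of surgically denervated fat. They were chosen by name, as all genes whose symbol starts with "mt-", which gave 37 of the 47729 genes in the deposited tables. These are 13 mRNAs, 2 ribosomal RNAs and 22 transfer RNAs, and all 37 matched genes on chromosome M of the GENCODE M21 annotation of GRCm38. The rule itself uses no expression value.

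The mitochondrial genome is a small circle that is copied and transcribed inside the organelle. Both strands are transcribed as long precursors, which are cut into mRNAs, rRNAs and tRNAs, and the stability of each product then sets much of its level. The mRNAs encode core subunits of respiratory complexes I, III and IV and of ATP synthase (complex V), while the other subunits of these complexes, and every protein of mitochondrial transcription, RNA processing and translation, come from nuclear genes. Brown fat is rich in mitochondria, which it uses to make heat through uncoupling protein 1, and white fat, which stores lipid, holds fewer.

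Each library came from 1 of 4 depots, with 3 libraries per depot: interscapular brown fat (BAT), inguinal white fat (IWAT), epididymal white fat (EWAT) and retroperitoneal white fat (RWAT). All came from wild-type male C57BL/6J mice, 6 to 10 weeks old and fed a standard low-fat diet, and all 4 depots had been denervated, so no effect of denervation can be measured. Whether libraries of the same depot stem from different animals is not stated in the labels, so a p-value here measures spread between libraries that may be partly technical. The RNA was total RNA depleted of ribosomal RNA with Ribo-Zero Gold and sequenced as single 75-base reads. Library totals ran from 15699912 to 25633413 counts.

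The depot labels were checked against marker genes. Ucp1, the uncoupling protein of brown adipocytes, had 1820, 28.0 and 682 CPM (counts scaled by the library total) in the 3 BAT libraries, against 37.3, 118 and 25.8 CPM in IWAT, 0 to 0.0989 CPM in EWAT and 0.191 to 11.8 CPM in RWAT. BAT replicate 2 therefore lay below 2 IWAT libraries in this defining gene. Skeletal muscle markers, a list of 18 genes, summed to 14099, 14036 and 2612 CPM in BAT, and 1 white library, RWAT replicate 3, reached 21792 CPM. The remaining 8 white libraries held 25.7 to 109 CPM, with up to 5 of the 18 genes at 0, and Ckm, the muscle creatine kinase, had 0 counts in EWAT replicate 2 and IWAT replicate 3. Results are therefore also given without single libraries.

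Some members share bases with each other. The following pair shows the end of mt-Atp8 and the start of mt-Atp6, the ATP synthase genes, in which 43 bases belong to both (capitals). The sequences come from the GENCODE M21 transcripts of GRCm38, at chrM:7895-7969 and chrM:7927-8001 on the plus strand.
mt-Atp8: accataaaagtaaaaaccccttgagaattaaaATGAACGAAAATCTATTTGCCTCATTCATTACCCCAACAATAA
mt-Atp6: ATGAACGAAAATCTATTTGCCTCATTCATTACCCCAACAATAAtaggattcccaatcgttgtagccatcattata
The shared stretch is shorter than a read, so a full-length read reaches beyond it, and the authors' posterior standard deviation of the mt-Atp8 count was at most 0.00338% of the count. The annotation also overlaps mt-Nd4l with mt-Nd4 by 7 bases, mt-Atp6 with mt-Co3 by 1 base and, on opposite strands, mt-Nd5 with mt-Nd6 by 14 bases.

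A second kind of sharing is with the nuclear genome. On chromosome 1 of GRCm38, chr1:24611535-24616197 on the minus strand holds 7 annotated pseudogenes, each a copy of all or part of a mitochondrial mRNA. The first 75 bases of mt-Co2, which encodes a catalytic-core subunit of complex IV, are printed beside the same stretch of its copy Gm28661, since a read of this length cannot tell them apart. They lie at chrM:7013-7087 on the plus strand and at chr1:24615491-24615565 on the minus strand.
mt-Co2: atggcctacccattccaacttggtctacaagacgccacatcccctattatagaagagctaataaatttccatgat
Gm28661: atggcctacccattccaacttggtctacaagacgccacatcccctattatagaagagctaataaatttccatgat
For mt-Nd3, which encodes a complex I subunit, the copy Gm28438 differs over 345 aligned bases by T3C (the gene's base first, counted from 1 at the gene's 5′ end; capitals below). The stretches lie at chrM:9459-9491 on the plus strand and chr1:24613087-24613119 on the minus strand.
mt-Nd3: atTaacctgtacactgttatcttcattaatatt
Gm28438: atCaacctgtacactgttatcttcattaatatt

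The mitochondrial genome supplied 19.0%, 13.01% and 13.4% of the library counts in BAT, against 12.1%, 10.2% and 4.40% in IWAT, 4.87%, 4.57% and 3.56% in EWAT and 11.6%, 3.28% and 3.79% in RWAT. All 3 BAT libraries lay above all 9 white libraries, but the lowest BAT library stood close to the highest IWAT library. The share averaged 15.1 ± 3.34% in BAT (SD, n = 3), against 6.48 ± 3.67% in white fat (SD, n = 9). By white depot, it averaged 8.89 ± 3.99% in IWAT, 4.33 ± 0.69% in EWAT and 6.21 ± 4.64% in RWAT (SD, n = 3 each). EWAT was uniform, while IWAT and RWAT each mixed libraries of high and low share. In every depot, replicate 1 had the highest share. The 95% Wilson interval of a library's share was at most 0.0338 percentage points wide and covers counting error only, so counting error was far below the spread between libraries of a depot. Because these are shares of a bulk library, more mitochondrial RNA per cell and more cells rich in it cannot be told apart.

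**Figure D1:**
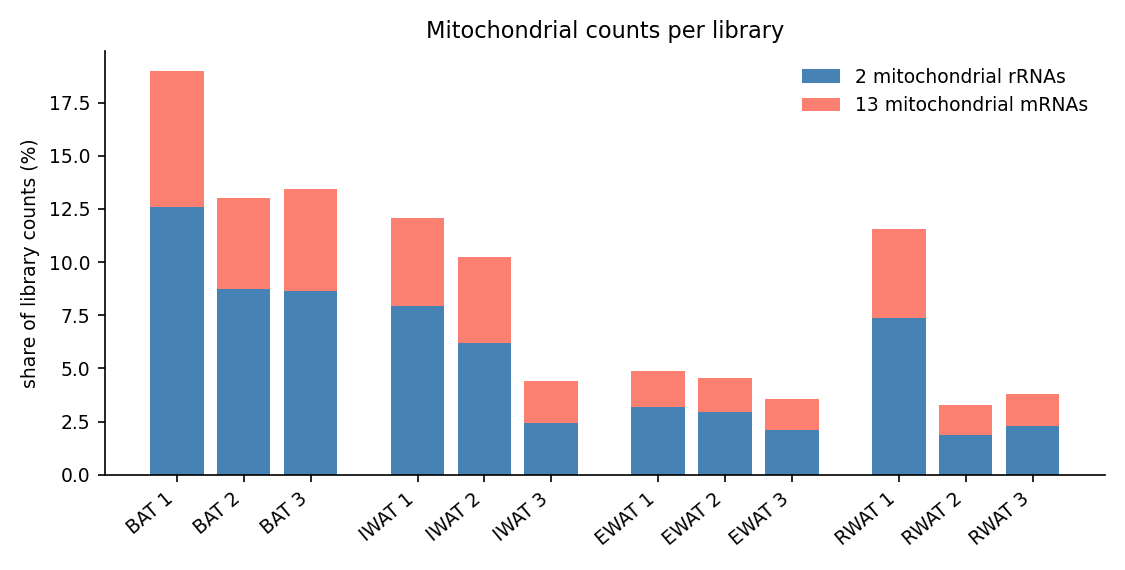
Share of library counts (%, vertical axis) from the 2 mitochondrial rRNAs and the 13 mitochondrial mRNAs, stacked, in each of the 12 libraries, by depot. The 3 BAT bars reach 13.01% to 19.0%, and the white bars range from 3.28% to 12.1%, with 1 high library in RWAT and 2 in IWAT.

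The ribosomal RNAs made up most of this. mt-Rnr1 and mt-Rnr2, the RNAs of the small and large mitochondrial ribosomal subunits, together held 12.6%, 8.73% and 8.64% of counts in BAT, against 1.84% to 7.93% in the white libraries. mt-Rnr2 alone held 50.4% to 58.8% of the mitochondrial counts of a library. The kit used removes ribosomal RNA, so these counts are what was left after depletion and not the cell's own ratio of rRNA to mRNA. The mRNAs held 6.40%, 4.28% and 4.80% of counts in BAT, against 4.12%, 4.04% and 1.97% in IWAT, 1.67%, 1.62% and 1.46% in EWAT and 4.19%, 1.43% and 1.49% in RWAT. With the rRNAs set aside, BAT thus stayed above the white libraries by a narrow margin on this scale. In the authors' TPM (abundance per transcript length, scaled to a fixed sum) it did not: the mRNAs held 7.75%, 5.59% and 7.37% of TPM in BAT, against 5.73%, 5.96% and 3.16% in IWAT, 2.12%, 2.17% and 2.22% in EWAT and 6.53%, 2.24% and 2.24% in RWAT. BAT replicate 2 lay below 3 white libraries there, and with all members it had 13.3% of TPM, below RWAT replicate 1 with 13.9%. The ratio of rRNA to mRNA counts was 1.80 to 2.04 in BAT, against 1.24 to 1.92 in white fat. The tRNAs held 0.00134% to 0.00254% of counts in BAT, against 0.000446% to 0.00185% in white fat.

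Among the white libraries, the mitochondrial share moved with the adipocyte and macrophage markers of the same libraries, as the plot of share beside markers shows. The 10 mature adipocyte markers, such as Adipoq (adiponectin) and Plin1 (perilipin 1), summed to 15177, 22991 and 10267 CPM in BAT, against 23544, 23998 and 8777 CPM in IWAT, 6489.8, 8166 and 4356 CPM in EWAT and 19979, 4682 and 3538 CPM in RWAT. The 12 macrophage markers ran the other way, with 677, 1253 and 5082 CPM in BAT, against 1392, 2732 and 6727 CPM in IWAT, 6459, 8831 and 8409.7 CPM in EWAT and 1868, 6447 and 5738 CPM in RWAT. The 6 white libraries with less than 5% mitochondrial counts were the 6 with the lowest adipocyte and the highest macrophage sums among the white libraries. This did not extend to BAT, where replicate 2 had the highest adipocyte sum and the lowest share. IWAT replicates 1 and 2 exceeded every BAT library in adipocyte sum, with lower shares. The 8 brown adipocyte markers summed to 3255, 196 and 1217 CPM in BAT, against 75.7 to 411 CPM in IWAT, 5.31 to 10.6 CPM in EWAT and 7.63 to 95.4 CPM in RWAT. BAT replicate 2 thus had a high mitochondrial share beside a low brown sum. Between BAT and white fat edgeR called 4 of these 8, with log2 fold changes of 8.92 ± 1.25 for Ucp1 and 6.62 ± 0.82 for Slc27a2, a fatty acid transporter (SE; edgeR adjusted p = 0.0356 and 0.0272), beside 0.0992% of all genes, and it called none of the other 5 marker lists. The median log2 fold change was 1.00 for the adipocyte, 7.29 for the muscle, -0.68 for the macrophage, -0.24 for the lymphocyte and -0.13 for the endothelial list, and unadjusted p-values were under 0.05 for 1, 18, 2, 3 and 1 of their genes. The 4 endothelial markers summed to 259 to 398 CPM in BAT, against 338 to 938 CPM in white fat, and the 7 lymphocyte markers to 1.83 to 11.5 CPM in BAT, against 6.16 to 21.1 CPM in white fat. The part of these cell types in the mitochondrial values was not tested. RWAT replicate 3 had the highest muscle sum of the 12 libraries and a mitochondrial share of 3.79%. The BAT libraries also held muscle markers, at 2612 to 14099 CPM, so muscle and brown fat cannot be told apart in the BAT values.

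**Figure D2:**
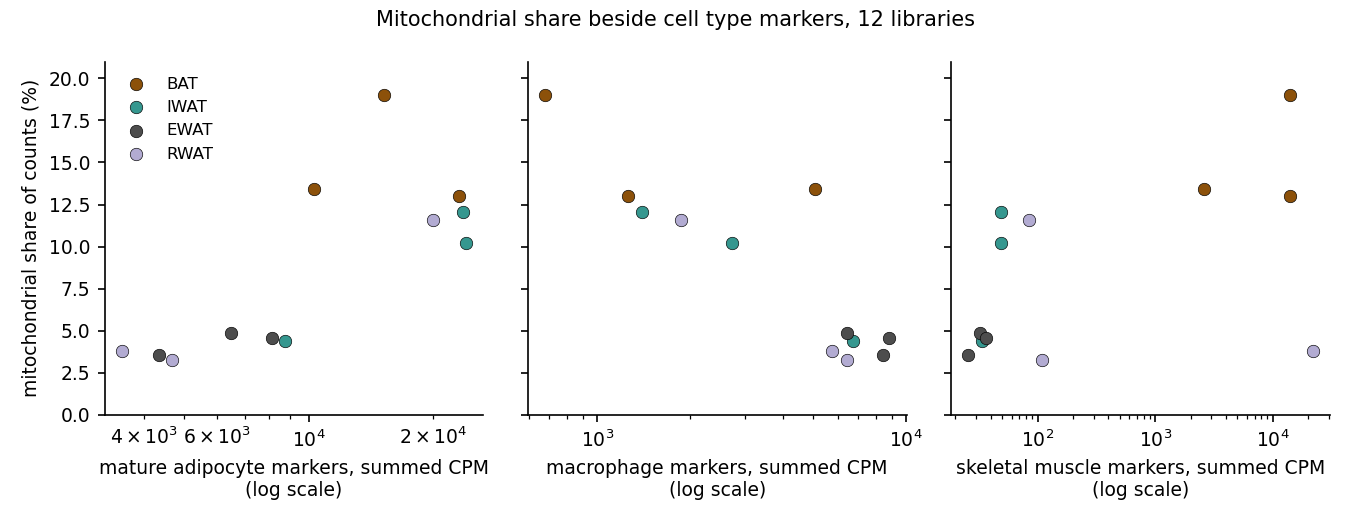
Mitochondrial share of library counts (%, vertical axis) beside the summed CPM of the mature adipocyte, macrophage and skeletal muscle marker lists (horizontal axes, log scale), 1 point per library, coloured by depot. White libraries under 5% sit at low adipocyte and high macrophage sums, and RWAT replicate 3 sits at 3.79% with 21792 CPM of muscle markers. The BAT libraries sit at 2612 to 14099 CPM of muscle markers.

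How far each mRNA's count can be read depended on its nuclear copy. The authors' counts came from RSEM, which divides reads that fit several transcripts by an estimated probability. For mt-Co2, 99.5% of its 75-base windows also occur in a nuclear transcript, and the copy Gm28661 received 96.6% to 99.2% of the counts of the pair. mt-Co3, another complex IV gene, also has a copy with no mismatch (Gm28437, 783 aligned bases) and 99.9% shared windows, but here the copy received 0% to 0.00183%. Genes with nearly all windows shared were thus divided in opposite ways.

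The other copies fell between these. Gm10222 received 69.3% to 90.4% of the pair with mt-Nd4l, Gm28438 received 24.6% to 62.1% of the pair with mt-Nd3, and Gm28439 received 9.82% to 16.01% of the pair with mt-Nd4. Gm10925 received 0.313% to 35.5% of the pair with mt-Atp6, and Gm29216 received 1.78% to 5.08% of the pair with mt-Co1. For mt-Atp6 this division differed widely within depots, with 10.2%, 11.8% and 0.313% in BAT and 8.32%, 35.5% and 20.9% in RWAT. The authors' posterior standard deviation of the count reached 43.4% to 176% of the count for mt-Co2 and 13.1% to 51.7% for mt-Nd4l, against at most 10.6% for the other 11 mRNAs. The rRNAs and mt-Nd1, mt-Atp8, mt-Nd6 and mt-Cytb share no 75-base window with an annotated nuclear transcript. Reads from the copies and from the mitochondrial genes cannot be told apart in these files, so levels of mt-Co2, mt-Nd4l, mt-Nd3, mt-Atp6 and mt-Co3 are uncertain, and for BAT against white fat they are also given with the copies' counts added where the copy received a sizeable share. With the copies added, the mitochondrial share was 20.3%, 13.8% and 14.3% in BAT, against 3.61% to 12.8% in white fat.

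**Figure D3:**
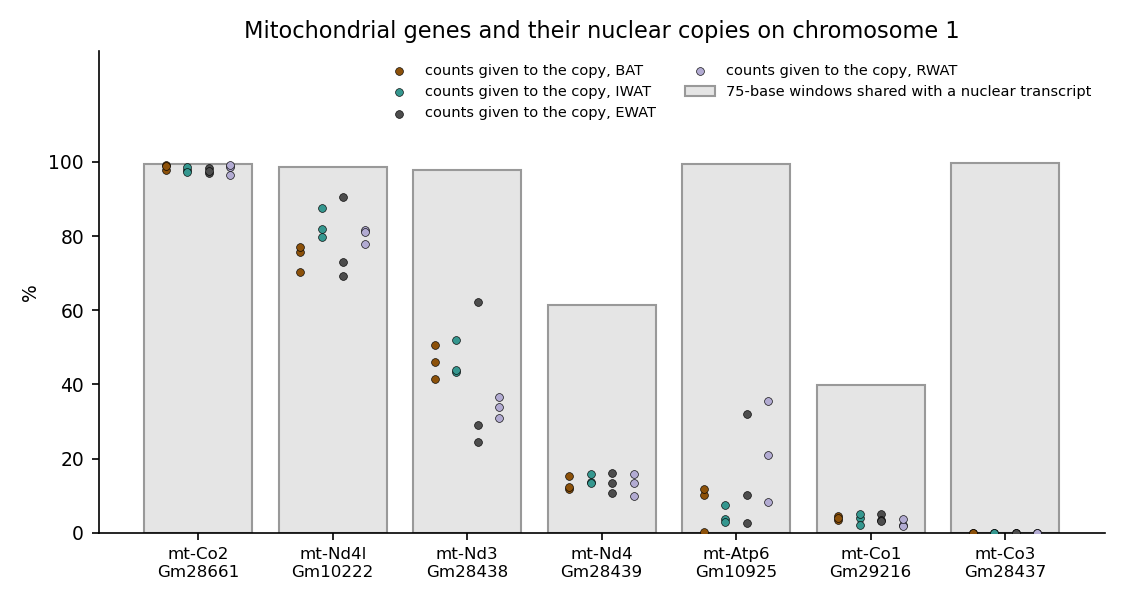
For 7 mitochondrial mRNAs and their chromosome 1 copies, the share (%) of the pair's counts that was given to the copy in each library (points, coloured by depot), and the share of the gene's 75-base windows that also occur in a nuclear transcript (grey bars). mt-Co2 and mt-Co3 both have bars near 100%, yet the copy received 96.6% to 99.2% of counts for mt-Co2 and at most 0.00183% for mt-Co3.

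BAT was compared first with the mean of the 3 white depots. All 13 mRNAs, both rRNAs and mt-Ts1, which were the 16 members with enough counts to be tested, had higher fitted levels in BAT, as did 45.0% of all 19154 genes tested. The log2 differences were 1.23 to 1.95 with a median of 1.61, while the median of all genes was -0.07. None of the 16 passed edgeR's quasi-likelihood test at a Benjamini-Hochberg adjusted p under 0.05, and their adjusted p-values were 0.144 to 0.266. Of all genes tested, 0.0992% passed. The unadjusted p was under 0.05 for all 16, as it was for 18.1% of all genes tested. DESeq2 called 9 of the 16, beside 4.96% of all genes, and limma-voom called 0. Levels below are CPM after TMM scaling, which adjusts library totals for differences in composition, and they are compared between libraries and not between genes.

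Complex I takes electrons from NADH, and 7 of its subunits are mitochondrially encoded. mt-Nd1 had 7850.1, 3214 and 3224 CPM in BAT, against 3854, 2965 and 1131 CPM in IWAT, 1098, 1036 and 838 CPM in EWAT and 3112, 871 and 885 CPM in RWAT (log2 fold change 1.56 ± 0.48, SE; edgeR adjusted p = 0.159). The lowest BAT libraries overlapped the highest IWAT library. mt-Nd2 averaged 2035 ± 834 CPM in BAT, against 1091 ± 654 CPM in IWAT, 318 ± 90.8 CPM in EWAT and 619 ± 672 CPM in RWAT (SD, n = 3 each), a log2 difference of 1.76 ± 0.56 (SE). mt-Nd4 averaged 2755 ± 754 CPM in BAT, against 1531 ± 933 CPM in IWAT, 598 ± 187 CPM in EWAT and 1147 ± 1277 CPM in RWAT, a log2 difference of 1.44 ± 0.57 (SE). Both followed mt-Nd1, with EWAT low throughout and 1 high RWAT library.

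mt-Nd5 had 2106, 2020.2 and 1289 CPM in BAT, against 1890.2, 1049 and 420.3 CPM in IWAT, 665, 459.8 and 392 CPM in EWAT and 1778, 297 and 343 CPM in RWAT. Its difference of 1.23 ± 0.54 (log2, SE) was the smallest of the 16, and 1 BAT library lay below the highest IWAT and RWAT libraries. mt-Nd6, which is the only mRNA on the light strand, averaged 261 ± 47.3 CPM in BAT, against 167 ± 96.7 CPM in IWAT, 77.4 ± 16.2 CPM in EWAT and 106 ± 111 CPM in RWAT (SD, n = 3 each), a log2 difference of 1.23 ± 0.50 (SE). mt-Nd5 and mt-Nd6, which lie on opposite strands, thus had the same fitted difference. The sources used here do not say whether counting used strand. RNA of the opposite strand therefore cannot be told apart from the mt-Nd6 mRNA itself.

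mt-Nd4l had 80.0, 73.9 and 46.1 CPM in BAT, against 35.5, 27.5 and 6.74 CPM in IWAT, 19.2, 4.63 and 12.9 CPM in EWAT and 37.5, 8.65 and 7.56 CPM in RWAT. On these counts the BAT libraries did not overlap the white ones, and the difference of 1.95 ± 0.56 (log2, SE; edgeR adjusted p = 0.144) was the largest of the 16. With the counts of its copy added, mt-Nd4l had 329.9, 248 and 200.1 CPM in BAT, against 197, 137 and 54.5 CPM in IWAT, 62.5, 48.6 and 47.7 CPM in EWAT and 203, 38.8 and 40.2 CPM in RWAT. BAT replicate 3 then lay below RWAT replicate 1, and the difference was 1.59 ± 0.48. mt-Nd3 had 1734, 479 and 933 CPM in BAT, against 917, 815 and 249 CPM in IWAT, 160.4, 92.1 and 138 CPM in EWAT and 789, 247 and 211 CPM in RWAT. BAT replicate 2 lay below 3 white libraries, and the log2 difference was 1.67 ± 0.49 (SE), or 1.85 ± 0.50 with the copy added. With it, the levels were 3523, 889 and 1597 CPM in BAT, against 1909.5, 1442 and 443 CPM in IWAT, 226, 243 and 183 CPM in EWAT and 1143, 375 and 333 CPM in RWAT, so BAT replicate 2 again lay below the same 3 libraries.

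mt-Cytb encodes cytochrome b of complex III. It had 7471, 4341 and 3255 CPM in BAT, against 3779.9, 2627 and 992 CPM in IWAT, 979.5, 833 and 760.4 CPM in EWAT and 3502, 744 and 802 CPM in RWAT. The difference was 1.72 ± 0.50 (log2, SE; edgeR adjusted p = 0.147), with 1 BAT library inside the white range.

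The 3 complex IV genes encode the core of cytochrome c oxidase, which passes electrons to oxygen. mt-Co1 had 38452, 20093 and 19269 CPM in BAT, against 18155, 17281 and 6969 CPM in IWAT, 6057, 6049 and 5499 CPM in EWAT and 17484, 4995 and 5369 CPM in RWAT. No BAT library fell inside the white range, and the log2 difference was 1.50 ± 0.50 (SE; edgeR adjusted p = 0.183). mt-Co3 had 27358, 9804 and 11241 CPM in BAT, against 12310.2, 10845 and 3662 CPM in IWAT, 2718, 3159 and 2526 CPM in EWAT and 8400.3, 2933 and 3169.8 CPM in RWAT, a log2 difference of 1.71 ± 0.49 (SE). Here 2 BAT libraries lay within the white range. mt-Co2 had only 350.2, 63.0 and 69.3 CPM in BAT, against 15.5 to 147 CPM in the white libraries, a log2 difference of 1.31 ± 0.57 (SE). Without BAT replicate 1 this difference was 0.026. With the counts of Gm28661 added it had 16469, 6717 and 6879.6 CPM in BAT, against 7253, 6090.4 and 2474 CPM in IWAT, 2071, 2053 and 1801 CPM in EWAT and 6288, 1988 and 2118 CPM in RWAT, and the difference was 1.60 ± 0.46 (SE).

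ATP synthase makes ATP from the proton gradient that the other complexes build. mt-Atp6 averaged 6846 ± 3457 CPM in BAT, against 4319 ± 2412 CPM in IWAT, 1174 ± 288 CPM in EWAT and 1955 ± 1800.3 CPM in RWAT (SD, n = 3 each), a log2 difference of 1.67 ± 0.53 (SE). With the counts of Gm10925 added it had 11955, 4659.6 and 5713 CPM in BAT, against 6529, 5196 and 1760.2 CPM in IWAT, 1373, 1497 and 1237 CPM in EWAT and 4397, 1302 and 1255 CPM in RWAT, a difference of 1.62 ± 0.48, and BAT replicate 2 lay below 2 IWAT libraries. mt-Atp8, the shortest of the mRNAs, had 1267, 429.9 and 730.0 CPM in BAT, against 906, 632 and 234 CPM in IWAT, 158, 95.9 and 118 CPM in EWAT and 634, 181 and 174 CPM in RWAT. Its difference was 1.49 ± 0.47 (log2, SE), and BAT replicate 2 lay below 3 white libraries, as it did for mt-Nd3.

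Among the rRNAs, mt-Rnr2 had 181745, 86287 and 81412 CPM in BAT, against 89612, 61462 and 18519 CPM in IWAT, 24317, 22252 and 15206 CPM in EWAT and 67243, 13824 and 17507 CPM in RWAT, a log2 difference of 1.79 ± 0.71 (SE). mt-Rnr1 had 23072, 14234 and 7559.9 CPM in BAT, against 11664, 6325 and 1806 CPM in IWAT, 3688, 3288 and 1954 CPM in EWAT and 10349, 1311 and 2097 CPM in RWAT, a log2 difference of 1.74 ± 0.65 (SE). Both rRNAs had wider errors than any mRNA, and at least 1 BAT library lay below IWAT replicate 1 in each.

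Over the 16 members, the BAT libraries lay above all 9 white ones for 2 genes, mt-Co1 and mt-Nd4l, while 0.475% of all genes tested did so. With the copies' counts added it held for mt-Co1 alone, and mt-Nd4l no longer separated. As a share of the library total, without TMM, this held for 4 genes (mt-Rnr2, mt-Nd2, mt-Co1 and mt-Nd4l), while 0.292% of all genes did so. Without TMM the median log2 difference of the members was 1.17, but the median of all genes was then -0.46. The result rested unevenly on the libraries. Without BAT replicate 1, the median of the members was 1.10, and 2 of 16 had an unadjusted p under 0.05, as did 1108 of all 20578 genes tested in that fit. Without RWAT replicate 1, the 1 RWAT library with a high share, the median was 1.93 and edgeR called 7 of 16 (mt-Nd2, mt-Ts1, mt-Atp6, mt-Nd4, mt-Nd6, mt-Cytb and mt-Nd4l), beside 1.27% of all genes. Without BAT replicate 2, the library with little Ucp1, it was 1.78, and without RWAT replicate 3, the library with muscle markers, it was 1.51.

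**Figure D4:**
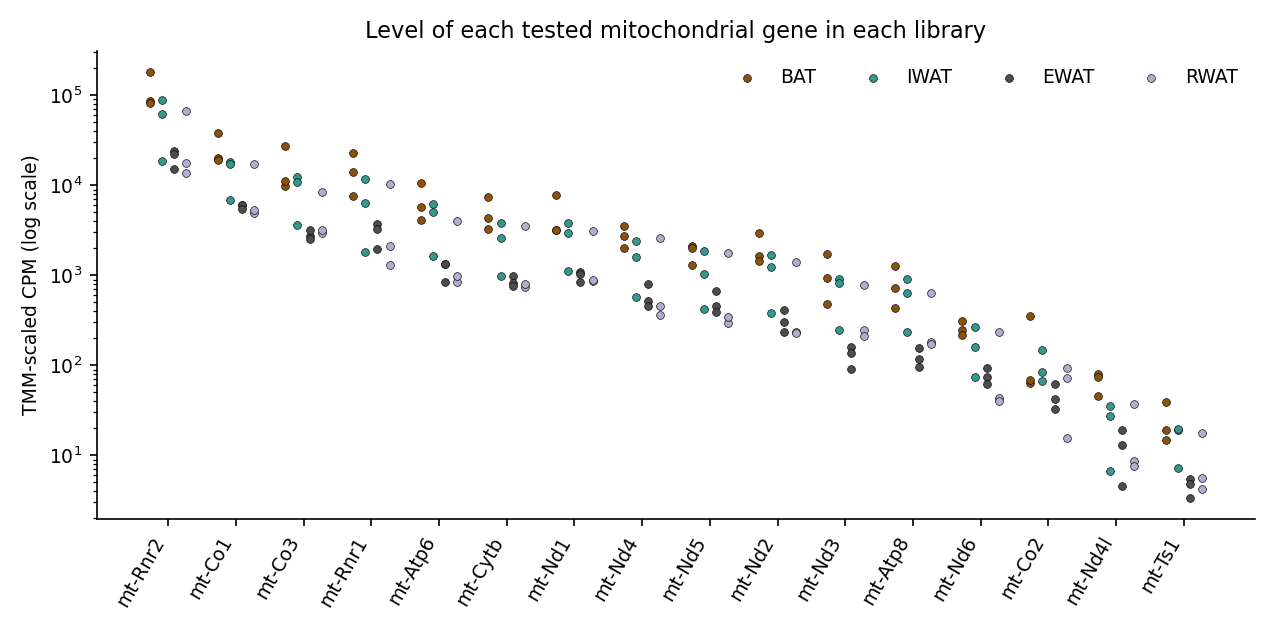
TMM-scaled CPM (log axis) of the 16 tested mitochondrial genes in each library, 1 point per library, coloured by depot and ordered along the horizontal axis by mean level. In every gene at least 1 RWAT library and 2 IWAT libraries sit near or among the BAT points, and the EWAT libraries sit below all 3 BAT libraries.

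The tRNAs were close to invisible in these libraries. Of the 22 genes, 9 had 0 counts in all 12 libraries, and a count of 0 allows up to 3 counts, or 0.117 to 0.191 CPM depending on the library. Another 12 had at most 9 counts in any library. Of the 22, 21 are annotated as shorter than the 75-base read, so a read of full length cannot lie within them. mt-Ts1, a serine tRNA, held 95.8% of all tRNA counts. It had 503, 227 and 388 counts in BAT, against 384, 354 and 139 counts in IWAT, 103, 113 and 68 counts in EWAT and 300, 95 and 104 counts in RWAT, or 39.6, 14.9 and 19.0 TMM-scaled CPM in BAT, against 3.40 to 19.6 CPM in white fat. The log2 difference was 1.50 ± 0.44 (SE; edgeR adjusted p = 0.149), and BAT overlapped IWAT and RWAT. Next came mt-Te, a glutamic acid tRNA, with 38 counts over the 12 libraries, and mt-Ty, a tyrosine tRNA, with 29.

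Position on the genome goes with these tRNA counts. mt-Ts1 is encoded on the minus strand and its end overlaps the end of mt-Co1 by 3 bases, shown in capitals at chrM:6870-6938 (minus strand) and chrM:6828-6872 (plus strand), each 5′ to 3′.
mt-Ts1: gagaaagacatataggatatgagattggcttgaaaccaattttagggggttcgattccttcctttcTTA
mt-Co1: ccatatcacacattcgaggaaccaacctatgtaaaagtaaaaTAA
The mt-Ts1 count was 0.0618% to 0.113% of the mt-Co1 count in the same library. All 8 tRNA genes annotated on the minus strand had counts, with 107 in all beside mt-Ts1, while 5 of the 14 on the plus strand did, with 15 in all. Whether counting used strand is not given in the sources used here. Plus-strand RNA, the strand of mt-Co1, therefore cannot be told apart from the minus-strand tRNA itself.

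The pairs of depots gave a graded picture. BAT against EWAT had the widest difference: all 16 members had higher fitted levels in BAT, as did 45.6% of all genes. The median was 2.43 (log2), with mt-Nd3 at 3.01 ± 0.70, mt-Nd6 at 1.75 ± 0.67, mt-Rnr1 at 2.33 ± 0.91 and mt-Rnr2 at 2.50 ± 0.99 (SE). Adding the copies' counts put mt-Nd3 at 3.20 ± 0.72 and left mt-Nd6 at 1.75 ± 0.67. The 3 BAT libraries lay above the 3 EWAT libraries in all 16, as they did for 19.1% of all genes tested. edgeR called 0 of the 16, with adjusted p-values of 0.0638 to 0.159, beside 0.783% of all genes; all 16 had an unadjusted p under 0.05, as did 27.7% of all genes. DESeq2 called 15, all but mt-Co2, beside 16.8% of all genes, and limma-voom called 0. Without RWAT replicate 1, which belongs to neither depot, edgeR called 12, beside 6.86% of all genes. That library enters this comparison through the genes kept, the scaling and the shared estimate of spread. Without BAT replicate 3 edgeR called 5, beside 9.70% of all genes.

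BAT against IWAT had the narrowest difference of the BAT pairs. All 16 had higher fitted levels in BAT, as did 45.0% of all genes, and the median was 0.85 (log2), from 0.45 ± 0.62 for mt-Atp8 to 1.52 ± 0.76 for mt-Nd4l, with mt-Rnr1 at 1.18 ± 0.88 and mt-Rnr2 at 1.04 ± 0.95 (SE). The value for mt-Nd4l fell to 1.00 ± 0.63 when the copies' counts were added. It was then below mt-Rnr1, at 1.18 ± 0.88, and mt-Cytb, at 1.03 ± 0.67. edgeR called 0 of the 16, each at an adjusted p of 0.998, beside 0.0104% of all genes, and 0 had an unadjusted p under 0.05, against 3.85% of all genes. DESeq2 and limma-voom also called 0. BAT lay above IWAT without overlap for 2 members, mt-Co1 and mt-Nd4l, as for 3.61% of all genes. Without BAT replicate 1 the difference was -0.59 for mt-Co2 and -0.03 for mt-Atp8, and the other 14 stayed above 0.

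BAT against RWAT lay between these, with higher fitted levels in BAT for all 16 members, as for 45.0% of all genes. The median was 1.52 (log2), from 1.16 ± 0.71 for mt-Nd5 to 1.90 ± 0.77 for mt-Nd4l, and with mt-Rnr1 at 1.71 ± 0.89 and mt-Rnr2 at 1.83 ± 0.97 (SE). Once the copies' counts were added, mt-Nd4l stood at 1.46 ± 0.64, and mt-Co3 was the highest mRNA at 1.74 ± 0.66. edgeR called 0 of the 16, with adjusted p-values of 0.319 to 0.412, beside 0.0574% of all genes; 8 had an unadjusted p under 0.05, against 14.8% of all genes, and DESeq2 and limma-voom called 0. For 7 members (mt-Rnr2, mt-Nd1, mt-Nd2, mt-Co1, mt-Atp6, mt-Co3 and mt-Nd4l) BAT lay above RWAT without overlap, as for 7.42% of all genes. When the copies' counts were added, mt-Nd4l no longer separated, while mt-Co2 did, with 6717 CPM in its lowest BAT library against 6288 CPM in RWAT replicate 1. Without RWAT replicate 1 the median was 2.56, and 15 had an unadjusted p under 0.05, as did 4896 of all 20689 genes tested in that fit. Without BAT replicate 1 the median was 1.10. The 3 BAT pairs share the BAT libraries, so they are not independent of each other.

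Among the white depots, IWAT had higher fitted levels than the mean of EWAT and RWAT for all 16 members, as for 45.6% of all genes. The median was 1.05 (log2), from 0.65 ± 0.63 for mt-Nd4l to 1.55 ± 0.52 for mt-Atp8, with mt-Rnr1 at 0.84 ± 0.73 and mt-Rnr2 at 1.12 ± 0.79 (SE). Adding the copies' counts put mt-Nd4l at 0.88 ± 0.53. The range then ran from 0.81 ± 0.59 for mt-Nd5 to 1.79 ± 0.55 for mt-Nd3. edgeR called 0 of the 16, with adjusted p-values of 0.392 to 0.662, beside 0.141% of all genes; 5 had an unadjusted p under 0.05, against 11.5% of all genes, and DESeq2 and limma-voom called 0. No member had all IWAT libraries above the 6 others, as 0.924% of all genes did, with IWAT replicate 3 low and RWAT replicate 1 high. Without RWAT replicate 1 the median was 1.61, and without IWAT replicate 1 it was 0.66.

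EWAT against RWAT gave lower fitted levels in EWAT for all 16 members, as for 53.6% of all genes. The median was -0.72 (log2), from -1.67 ± 0.66 for mt-Nd3 to -0.38 ± 0.74 for mt-Co2, and with mt-Rnr1 at -0.62 ± 0.87 and mt-Rnr2 at -0.67 ± 0.94 (SE). Once the copies' counts were added, mt-Co2 stood at -0.81 ± 0.61. The range then ran from -1.50 ± 0.67 for mt-Nd3 to -0.46 ± 0.65 for mt-Nd6. edgeR called 0 of the 16, with adjusted p-values of 0.455 to 0.917, beside 0.0418% of all genes; 2, mt-Nd3 and mt-Atp8, had an unadjusted p under 0.05, against 9.04% of all genes, and DESeq2 and limma-voom called 0. In these 2 genes the EWAT libraries lay below the RWAT libraries without overlap, as for 6.66% of all genes. The direction depended on 1 library: without RWAT replicate 1, 12 of 16 members were higher in EWAT and the median was 0.26.

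**Figure D5:**
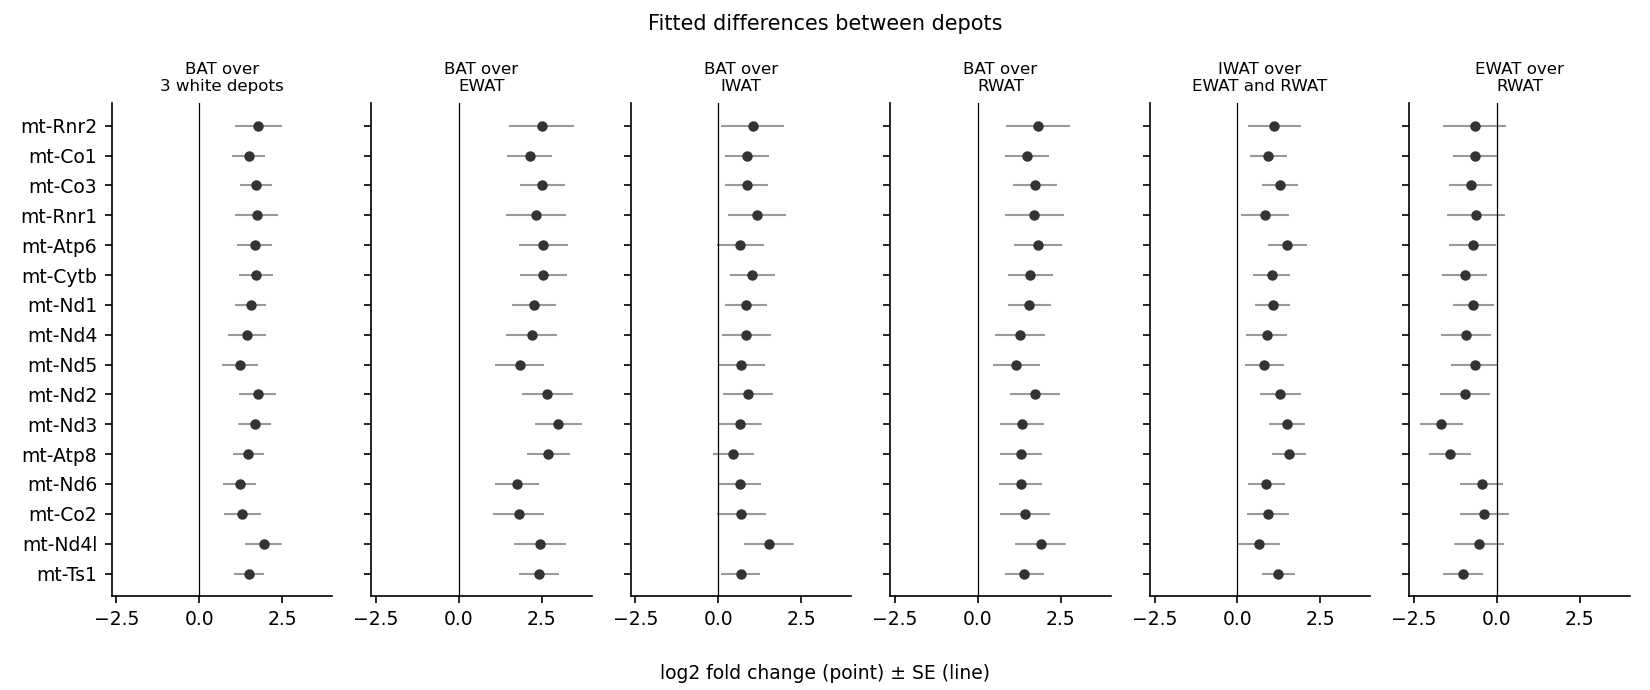
Fitted log2 fold change (points) and its SE (lines) of the 16 tested mitochondrial genes in 6 comparisons of depots, first-named depot over second; the vertical line marks no difference. BAT differences centre on 1.61 against white fat as a whole, and the EWAT over RWAT points lie left of the line in this fit of all 12 libraries but 12 of 16 turn positive without RWAT replicate 1.

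Levels of different genes can be compared per length, with the authors' TPM. As a share of the summed TPM of the 13 mRNAs, averaged over the 12 libraries, mt-Co3 held 27.8%, mt-Co1 24.3% and mt-Atp6 13.6%. At the low end were mt-Nd6 with 0.909%, mt-Co2 with 0.410% and mt-Nd4l with 0.324%. The high members varied little between libraries, mt-Co3 by a factor of 1.33 and mt-Co1 by a factor of 1.51 between the lowest and highest library, while mt-Co2 and mt-Nd4l varied by factors of 4.34 and 4.51. With the TPM of the chromosome 1 copies added, mt-Co2 held 16.3% and stood at rank 3 of 13, behind mt-Co3 with 21.1% and mt-Co1 with 20.9%, and mt-Nd4l held 1.15%, above mt-Nd6. Most of the variation of these 2 low members was then gone. Between libraries mt-Co2 ran from 14.4% to 17.8% and mt-Nd4l from 0.907% to 1.62%, against 18.4% to 23.5% for mt-Co3.

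mt-Co3 and mt-Co1 were the highest pair in every depot. mt-Co3 held 28.1 ± 2.81% of mRNA TPM in BAT, against 27.8 ± 1.01% in IWAT, 27.1 ± 2.85% in EWAT and 28.1 ± 3.89% in RWAT (SD, n = 3 each). mt-Co1 held 23.1 ± 2.37% in BAT, against 22.3 ± 2.90% in IWAT, 27.5 ± 1.64% in EWAT and 24.5 ± 0.682% in RWAT, so it stood just above mt-Co3 in EWAT and below it elsewhere. These shares were not tested between depots.

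Ratios within a library need no scaling between libraries. The ratio of mt-Nd6 to mt-Nd5 counts, which sets a light-strand mRNA against its heavy-strand neighbour, was 0.148, 0.124 and 0.171 in BAT, against 0.118 to 0.175 in the white libraries. BAT lay inside the white range, and an exact permutation test of the log2 ratio, two-sided, gave a difference of -0.01 with p = 0.955 (adjusted p = 0.955 over 4 ratio tests; the smallest p possible with 3 against 9 is 0.00909). In IWAT against EWAT and RWAT the log2 difference was 0.12, with an exact permutation p of 0.357 (adjusted 0.714; smallest possible 0.0238). The ratio of mt-Rnr1 to mt-Rnr2, both targets of the depletion, was 0.127, 0.165 and 0.0929 in BAT, against 0.0948 to 0.154 in white fat, a log2 difference of 0.02 with an exact permutation p of 0.927 (adjusted 0.955). In IWAT against EWAT and RWAT it was -0.26, with an exact permutation p of 0.238 (adjusted 0.714). No difference in either ratio was shown at this number of libraries, and for BAT against white fat the sign of both differences depended on which library was left out. Because the strand setting of the counting is not given, the mt-Nd6 to mt-Nd5 ratio cannot be read as light-strand RNA alone.

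A wider spread stood in TPM ratios to mt-Nd5, here of the short mRNAs mt-Nd3 and mt-Atp8 and of the longer mt-Co3. These ratios were picked out after the values were seen and therefore not tested. The ratio of mt-Nd3 to mt-Nd5 in TPM was 5.25, 1.51 and 4.62 in BAT, against 3.09, 4.96 and 3.78 in IWAT, 1.54, 1.28 and 2.25 in EWAT and 2.83, 5.31 and 3.92 in RWAT. The ratio of mt-Atp8 to mt-Nd5 in TPM was 8.07, 2.85 and 7.59 in BAT, against 6.43, 8.08 and 7.46 in IWAT, 3.18, 2.79 and 4.02 in EWAT and 4.78, 8.16 and 6.82 in RWAT. In both ratios the 3 EWAT libraries and BAT replicate 2 were the 4 lowest of the 12. mt-Atp8 shares no 75-base window with an annotated nuclear transcript, and its ratio was low in the same 4 libraries. The spread was not particular to short mRNAs: for mt-Co3, of 784 bases, the ratio to mt-Nd5 ran from 10.1 to 32.0. The share of mt-Nd5 itself in mRNA TPM varied by a factor of 2.44, beside 2.22 for mt-Atp8 and 2.94 for mt-Nd3. The part of mt-Nd5 in these ratios was not tested. Among 98 nuclear protein-coding genes of 200 to 500 bases, the median log2 deviation of a library from the mean of the 12 was 0.43, -0.21 and 0.42 in BAT, against 0.22, 0.10 and -0.09 in IWAT, -0.21, 0.02 and -0.07 in EWAT and -0.32, 0.06 and -0.05 in RWAT. Short nuclear transcripts were thus also low in BAT replicate 2 and EWAT replicate 1, and lowest in RWAT replicate 1; their part in the ratios was not tested.

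The nuclear partners of the mitochondrial genome were described in the same fit. Of 36 tested complex I subunits encoded in the nucleus, 36 had higher fitted levels in BAT than in white fat, with a median of 1.52 (log2), and so did 9 of 9 complex III subunits (1.74), 10 of 10 complex IV subunits (1.56) and 15 of 15 complex V subunits (1.301), beside 45.0% of all genes tested. edgeR called 0 of them at an adjusted p under 0.05, beside 0.0992% of all genes, and the unadjusted p was under 0.05 for 36, 9, 10 and 14 of these, beside 18.1% of all genes. Complex II, which has no mitochondrially encoded subunit, had a median of 1.74 over 4 of 4 subunits. The 13 mitochondrial mRNAs, with a median of 1.56, thus lay within the range of the nuclear lists of the same complexes.

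In their means, single nuclear subunits show the same order of depots. Atp5b, the catalytic beta subunit of ATP synthase, averaged 2950.2 ± 2244 CPM in BAT, against 1698 ± 995 CPM in IWAT, 567 ± 43.3 CPM in EWAT and 816 ± 551 CPM in RWAT (SD, n = 3 each), a log2 difference of 1.68 ± 0.50 (SE; edgeR adjusted p = 0.149). Cox4i1, a nuclear subunit of complex IV, averaged 685 ± 438 CPM in BAT, against 410.1 ± 219 CPM in IWAT, 179.8 ± 22.1 CPM in EWAT and 198 ± 100.6 CPM in RWAT, a difference of 1.49 ± 0.41. In Atp5b and Cox4i1, BAT replicate 1 was the highest library, at 5522 and 1187 CPM. BAT replicate 3, at 1394 and 382 CPM, lay below IWAT replicates 1 and 2 in both genes. Uqcrc1 of complex III differed by 1.88 ± 0.46 (log2, SE; edgeR adjusted p = 0.121) and Sdha of complex II by 1.88 ± 0.51 (edgeR adjusted p = 0.137).

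The genes that make and use mitochondrial RNA had smaller median differences. The transcription and replication list (17 of its genes tested, Tfam, Polrmt and Polg among them) had a median of 0.66 between BAT and white fat, with 15 higher; the RNA processing and turnover list had 0.54, with 21 of 22 higher; the mitochondrial ribosomal proteins had 0.78, with 79 of 79 higher; and the mitochondrial aminoacyl-tRNA synthetases had 0.57, with 21 of 22 higher. edgeR called 0 of these genes in this comparison, and unadjusted p-values were under 0.05 for 9, 13, 61 and 12 of them, against the same shares of all genes as above. Lrpprc, which stabilises mitochondrial mRNAs, averaged 127 ± 82.3 CPM in BAT, against 89.1 ± 32.5 CPM in IWAT, 52.9 ± 3.31 CPM in EWAT and 60.7 ± 18.5 CPM in RWAT, a log2 difference of 0.95 ± 0.33 (SE; edgeR adjusted p = 0.192). Polg, the catalytic subunit of the mitochondrial DNA polymerase, differed by 0.25 ± 0.13 (edgeR adjusted p = 0.321) and Mrpl30, a protein of the large ribosomal subunit, by 1.07 ± 0.34 (edgeR adjusted p = 0.169). Lars2, the leucyl-tRNA synthetase, differed by 0.18 ± 0.46 (edgeR adjusted p = 0.820) and stood at 14194 ± 3101 CPM in BAT, against 11919.5 ± 2048 CPM in IWAT, 17371 ± 12792 CPM in EWAT and 9496 ± 811 CPM in RWAT (SD, n = 3 each). It had the highest mean CPM of its list. EWAT replicate 1 stood at 32138 CPM, against 9727 and 10247 CPM in EWAT replicates 2 and 3. Whether all of these counts came from the Lars2 mRNA was not tested. The difference between these lists and the mitochondrial genes was not tested.

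IWAT against EWAT and RWAT gave medians of 1.08, 1.42, 1.20 and 0.997 for the nuclear subunits of complexes I, III, IV and V, and 0.37 to 0.54 for the 4 lists of transcription, processing, ribosomal proteins and synthetases, beside 1.05 for the mitochondrial genes and -0.05 for all genes. EWAT against RWAT gave -0.63 to -0.47 for the subunits and -0.20 to -0.17 for the other 4 lists, beside -0.72 for the mitochondrial genes. edgeR called 0 genes of these lists in either comparison.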

How the data were processed

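The members and gene lists were chosen with earlier results of these data known. Trimmomatic 0.36, RSEM 1.3.0, DESeq2 1.10.1 and the build GRCm38.p4 are named in the submitters' processing notes. Neither an annotation nor a strand setting is given there. Each deposited file holds RSEM expected counts for every gene, without normalisation, with a posterior standard deviation of each count per the file headers. TPM values were computed by the authors, per the file headers. They entered tests only where the exact permutation tests of the ratios were repeated on TPM, which gave the same p-values.

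Expected counts were rounded, genes with low counts were removed with filterByExpr, which left 19154 of 47729, and libraries were scaled by TMM. edgeR 4.0.16 (R 4.3.3) fitted its quasi-likelihood model to the 12 libraries together, with depot as the only term, and 6 comparisons were adjusted by the Benjamini-Hochberg method over all genes tested. White fat is the mean of the 3 white depots on the log2 scale, each with equal weight. Copies were found by BLAST 2.17.0 against GENCODE M21 transcripts, at 90% identity or more over 75 bases or more, and a shared window is a 75-base stretch present letter for letter in a nuclear transcript of either strand. Ratios within a library were compared by exact permutation over libraries with SciPy 1.17.1.

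Named genes were all 13 mRNAs and both rRNAs in BAT against white fat, the 3 tRNAs with the most counts, both rRNAs and the mRNAs with the largest and smallest fold change in the other comparisons, the 3 highest and 3 lowest mRNAs in TPM, and from each list the called genes with the largest changes or, with none called, the gene with the highest mean; 1 gene that this rule names is not reported here. The ratios of mt-Nd3, mt-Atp8 and mt-Co3 to mt-Nd5 were chosen after values were seen. Alternatives were DESeq2 1.42.0, voom in limma 3.58.1, RLE size factors, library sizes without TMM or without mitochondrial genes, other filters, other denominators or units for shares, a replicate block and each library left out. Chosen after seeing the data were posterior mean counts and the copies' values added to the members. No protein sequences were used here.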

Additional observations from a re-analysis of the deposited data

How the results depend on the processing

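Over 22 other settings, edgeR, DESeq2 or limma-voom called 0 of the mitochondrial genes for IWAT against EWAT and RWAT, EWAT against RWAT, BAT against IWAT and BAT against RWAT. For BAT against white fat, DESeq2 called 9 and the replicate block called 8, and leaving out single libraries gave 0 to 7. For BAT against EWAT, DESeq2 called 15, the replicate block called 14, and leaving out single libraries gave 0 to 12. Over all genes, edgeR called 19 in the first of these comparisons and 150 in the second, against 950 and 3210 with DESeq2, 3 and 19 with limma-voom, and 649 and 3542 with the replicate block. The replicate block uses the libraries' numbers as a term, but the labels do not say what a number marks. Deviations correlated above 0.1 in 10 of 18 same-numbered pairs (median 0.154) and in 10 of 36 others (median -0.13). Correlations ran from -0.41 to 0.74 in the same-numbered pairs and from -0.73 to 0.66 in the others. Replicate 1 had the highest mitochondrial share in every depot. Whether the numbers pair the libraries was not settled by these values, so the main fit had no term for them. The cause of the differences between tools was not tested.

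With the rRNAs left out of the library total and the share, BAT had 5.76%, against 3.60% in IWAT, 1.63% in EWAT and 2.51% in RWAT, whose highest library, at 4.53%, stood close to the lowest BAT library, at 4.69%. As shares of summed counts, without the length correction of TPM, mt-Co3 held 22.5%, mt-Co1 40.6%, mt-Atp6 9.44%, mt-Nd6 0.459% and mt-Nd4l 0.0818% of the mRNAs. With copies added to TPM, mt-Co3 held 21.1%, mt-Co1 20.9%, mt-Co2 16.3% and mt-Nd4l 1.15%. Among the tested members, 1 sign turned with all libraries kept: for EWAT against RWAT, limma-voom gave 0.02 for mt-Nd6. The others turned when a library was left out. For EWAT against RWAT the log2 fold change ran from -0.84 to 0.075 for mt-Co2, from -1.07 to 0.80 for mt-Rnr1 and from -1.05 to 0.39 for mt-Rnr2, each positive without RWAT replicate 1. For BAT against IWAT, mt-Atp8 ran from -0.029 to 0.90, and without BAT replicate 1, which gave the lower value, mt-Co2 was at -0.59. mt-Co2 also depended on that library for BAT against white fat, with 0.03 to 1.73 over the libraries left out. For BAT against white fat, the log2 difference of the mt-Nd6 to mt-Nd5 ratio ran from -0.12 to 0.12 and that of mt-Rnr1 to mt-Rnr2 from -0.18 to 0.23. Few counts limit the tRNAs. Shared sequence limits mt-Co2 and mt-Nd4l most, and it also limits mt-Nd3, mt-Atp6 and mt-Co3. For the other tested members, counting error is small beside the spread between libraries of a depot.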
